A study of Orestias ascotanensis with 42 samples.

Results

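The miRNA names numbered 700 and above, from miR-722 to miR-11937, are 642 of the 1342 names in the deposited small RNA tables of Orestias ascotanensis, a killifish of the Ascotán salt pan in the high Andes. A name belonged here when, with its species prefix removed, it read miR-N with N of 700 or more, whatever the arm, leaving out miR-731. The nearest lower number was miR-551, listed at 0 reads under its 3 names, and the lowest number inside was miR-722, read 772 times as miR-722-5p in 38 libraries. The number alone chose the members, so their levels were not used to choose them.

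A miRNA is cut from a short RNA hairpin, and either arm of the hairpin, called 5p or 3p, can yield a short mature strand that guides silencing proteins to messenger RNAs. miRNAs are numbered roughly in the order in which they were reported. The low numbers therefore hold most families shared by all vertebrates, while many high numbers were first named in zebrafish or in surveys of single fish species. Few have a known role. In zebrafish, miR-722 acts on rac2 in neutrophils, and in human miR-1306 and miR-3618 come from the hairpin region of the DGCR8 gene.

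Gills, skin and muscle of 14 wild fish were sequenced, giving 42 libraries in 6 groups of 7. The 7 winter fish were netted in July 2019 and the 7 summer fish in January 2020, so season and collection date are 1 split, and no strain, genotype or agent separates the groups. All fish were killed with MS-222 and their tissues were put into RNAlater on site. Each fish gave all 3 tissues, so tissues are paired by fish and seasons are not. Every title names summer, in both collections, so each seasonal direction below rests on the treatment label. A batch label from 1 to 7 runs through both collections and equals the fish number.

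Counts summed over names per library spanned 598084 to 27067509 for gills, 11091382 to 36093916 for skin and 18314928 to 57710548 for muscle, and gills summer 4 (598084) and gills winter 2 (1196380) were the thinnest libraries. Levels below are CPM, counts scaled to that sum after TMM normalisation, which sets the bulk of miRNAs level between libraries. The scaling factors lay between 1.68 and 3.69 for gills, between 0.91 and 1.97 for skin and between 0.159 and 0.678 for muscle. Scaling by library totals alone would shift the log2 change of the median miRNA by -1.07 from gills to skin, by -3.39 from gills to muscle and by -2.28 from skin to muscle, and tissue changes are therefore stated relative to the other miRNAs. The tissue labels were checked against marker miRNAs. The summed level of 4 skeletal muscle markers reached 98.7 to 200.1 CPM in gills, against 2120 to 5644 for skin and 8105 to 27810 for muscle. The summed level of 7 epithelial markers reached 6410 to 17900 CPM in gills, against 4618 to 10910 for skin and 186 to 648 for muscle. Of these, miR-200a and miR-141 had the same median in each group, so the sum counts those reads under both names. The labels held, and skin also carried muscle markers. In whole tissue, fewer cells of a type and less RNA per cell cannot be told apart.

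Most of these names had no reads in the killifish. Of the 642 names, 551 were at 0 in all 42 libraries, and a count of 0 allows up to 3 reads per library for counting error alone. A further 22 had fewer than 42 reads in total, and 69 had 42 reads or more. A read is counted under each name it matches, and the 69 names fell into 41 read profiles, sets of names whose counts differed by less than 5% over the libraries. The same limit left 583 of all 1342 names in 338 profiles.

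Names carried by several species had reads more often. Of the 69 names that at least 2 species carry, 53 had reads, or 76.8%. Of the 573 names found in 1 species only, 38 had reads, or 6.63%. A name here includes its arm and letter, so some 1-species names share a read profile with names of several species. For example, miR-725-3p, listed for salmon only, shares its profile with miR-725, listed for 3 species. By number, 31 of the 40 names from miR-722 to miR-740 had reads and 21 of the 31 from miR-1306 to miR-4585 did. Reads were found for 25 of the 70 names from miR-6960 to miR-8825, for 12 of the 380 from miR-10543 to miR-10977 and for 2 of the 121 from miR-11183 to miR-11937. Nile tilapia alone carried 357 of the names, of which 8 had reads, and Atlantic cod alone carried 138, of which 15 had reads. miR-1306 had 37 reads in all, miR-3618 had 11, and miR-3120, which in human lies opposite miR-214 in the DNM3 gene, was listed at 0.

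**Figure D1:**
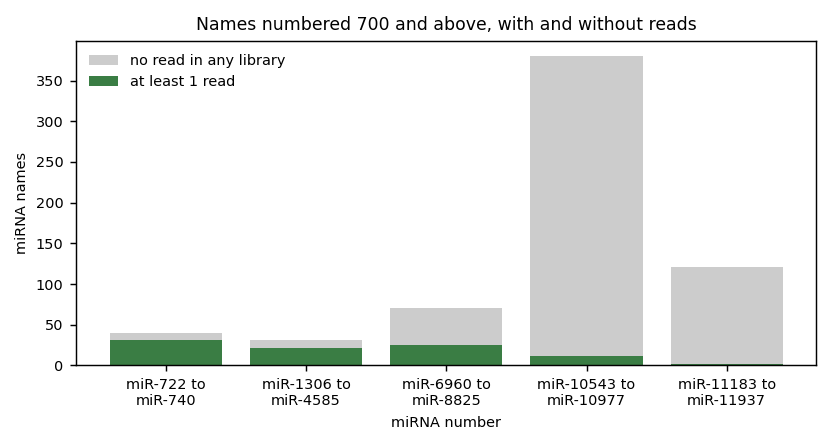
Number of miRNA names (vertical axis) in 5 bands of miRNA number (horizontal axis), split into names with at least 1 read in any of the 42 libraries and names with none. Of the 380 names from miR-10543 to miR-10977, 12 had reads, against 31 of the 40 from miR-722 to miR-740.

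With a member called expressed in a group when at least 4 of its 7 libraries held 10 reads or more, muscle expressed fewer names than gills or skin. That order depends on the limit. With 10 reads required in 7 of 7 libraries, gills summer had the fewest names, 10 (1.56%), and skin summer the most, 31 (4.83%). Muscle winter then had 20 and muscle summer 17. Over all 1342 names the same 2 groups were lowest and highest, at 18.0% and 31.7%, so this is not read as a trait of the members. Gills summer holds the thinnest library. In gills, 36 names in 21 profiles were expressed in winter and 47 names in 29 profiles in summer. In skin, 42 names in 26 profiles were expressed in winter and 40 names in 25 profiles in summer. In muscle, 27 names in 14 profiles were expressed in winter and 23 names in 13 profiles in summer. The members' share of 3.58% to 7.32% of names compares with 30.6% to 36.7% for all 1342 names. Of the 41 profiles, 13 were expressed in all 6 groups and 10 in none. A tissue counted when either season passed. By tissue, 14 profiles were expressed in gills, skin and muscle, 11 in gills and skin but not muscle, 4 in gills alone and 2 in skin alone. No profile was expressed in muscle without the others. No such split is given here for the profiles of all names, so it is not read as a trait of the members. The split follows the read limit, and CPM can order the tissues otherwise. miR-10545, counted as not in muscle, had medians of 0.624 CPM in gills, 0.706 in skin and 0.736 in muscle. miR-736-5p, counted as skin alone, had 0.400 in skin and 0.559 in muscle. For miR-1788-3p, at 28.1, 4.43 and 0.0513, CPM went with the split. Of the profiles expressed in a single tissue, only miR-1788 passed in both seasons. Libraries of muscle were the deepest by the summed count, but their TMM factors were the lowest, so 10 reads can stand for a higher CPM there. For example, 10 reads of miR-7133 in muscle summer 1 were 1.03 CPM, and 10 of miR-727b in gills summer 3 were 0.162. In the thin gills winter 2, 10 reads of miR-7132b were 2.40 CPM. The part of depth in these counts of expressed names was not tested.

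The expressed members held few of the reads, and mostly through 3 miRNAs. Counting 1 name per profile, members held 4.93% ± 3.69 of reads in gills (SD, n = 14), 1.85% ± 0.466 in skin and 0.636% ± 0.340 in muscle. Single gill libraries ranged from 0.727% in gills summer 4 to 13.9% in gills summer 2, and the range over skin libraries, 0.963% to 2.76%, lay inside that of gills. miR-2188-5p, miR-2184 and miR-725-3p together made up 85.8% ± 9.91 of the member reads in gills, 94.0% ± 4.30 in skin and 97.7% ± 1.2 in muscle. By CPM, relative to the other miRNAs, each of the 3 was highest in another tissue or pair of tissues. By mean share of reads, miR-2188-5p (3.552%) and miR-725-3p (0.647%) were both highest in gills, and miR-2184 (1.057%) in skin.

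miR-2188-5p, counted on the same reads as miR-2188, was the most abundant member. Its level in gills was 674 CPM in the lowest winter library, 1270 at the median and 11000 in the highest, and in summer it was 560, 5108 and 27000. In skin it was 219, 364 and 2696 CPM in winter and 268, 401 and 2287 in summer. In muscle it was 1392, 7474 and 9675 CPM in winter and 2398, 6505 and 10950 in summer. Skin was thus lowest at the median, though 5 of its 14 libraries reached into the gill range and 2 into the muscle range. By edgeR's quasi-likelihood test over all names tested, the level fell from gills to skin by 2.71 ± 0.48 on the log2 scale (SE, adjusted p = 5.1e-06) and rose from skin to muscle by 3.05 ± 0.49 (adjusted p = 5.7e-07). Scaled by totals alone the second change was 0.84 with an adjusted p of 0.0615. Gills and muscle differed by 0.33 ± 0.45 (adjusted p = 0.51), a value relative to the other miRNAs. Its mean share of reads, counting 1 name per profile, was 3.552% ± 3.605 in gills and 0.569% ± 0.331 in muscle (SD, n = 14 each).

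miR-2184, counted on the same reads as miR-2184-5p, was highest in skin. Its level in skin was 1648 CPM at the lowest, 2718 at the median and 3591 at the highest in winter, and 1591, 2443 and 3380 in summer. Gills gave 250, 396 and 553 CPM in winter and 104, 429 and 485 in summer, and muscle gave 266, 444 and 900 in winter and 181, 200 and 366 in summer. Every skin library stood above every gill and muscle library. The rise from gills to skin was 2.70 ± 0.21 on the log2 scale (adjusted p = 2.6e-15, edgeR) and the fall from skin to muscle was -2.76 ± 0.21 (adjusted p = 1.1e-15). Relative to the other miRNAs, gills and muscle differed by -0.06 ± 0.19 (adjusted p = 0.77). By share of reads, miR-2184 averaged 0.302% ± 0.126 in gills and 0.0495% ± 0.0573 in muscle (SD, n = 14 each). Of 2 pigment cell markers, miR-211 had no reads and miR-204 was at 1066 to 4817 CPM in skin, against 96.2 to 337 in gills and 174 to 1114 in muscle; its part in these values was not tested.

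miR-725-3p, counted with miR-725, was shared by both surface tissues. Its level was 219 to 1162 CPM over the 14 gill libraries with a median of 913, and 291 to 2029 in skin with a median of 991. In muscle it was 21.1 to 80.3 CPM with a median of 59.8, and no muscle library reached the lowest gill or skin library. The fall was -3.88 ± 0.25 from gills to muscle (log2, adjusted p = 2e-18, edgeR) and -3.94 ± 0.25 from skin to muscle (adjusted p = 4e-18). Gills and skin differed by 0.06 ± 0.22 (adjusted p = 0.84), relative to the other miRNAs. By share of reads, miR-725-3p averaged 0.647% ± 0.239 in gills and 0.4065% ± 0.2475 in skin (SD, n = 14 each). The epithelial markers listed above were likewise low in muscle, and their part in this was not tested.

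The next members fell stepwise from gills to skin to muscle. miR-1388-5p gave 120 to 328 CPM in gills with a median of 215, 51.7 to 123 in skin with a median of 74.5, and 6.48 to 58.6 in muscle with a median of 22.9. Gill and muscle libraries did not overlap, while the gill and skin ranges met at a single pair of libraries. Its log2 changes were -1.54 ± 0.19 from gills to skin and -1.69 ± 0.19 from skin to muscle (adjusted p = 2.4e-09 and 1.8e-10, edgeR). The profile named miR-1388, on which miR-1338-5p of cod and salmon is also counted, had nearly the same values and cannot be told apart as a molecule. The opposite strand, miR-1338-3p, ranged over 30.7 to 88.6 CPM for gills, 9.59 to 26.1 for skin and 1.81 to 15.6 for muscle, with log2 changes of -1.73 ± 0.23 and -1.64 ± 0.24 (adjusted p = 1.7e-08 and 5.7e-08). Both strands of the hairpin thus fell in the same 2 steps.

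The steepest gradient belonged to miR-1788. miR-1788-3p was 5.45 to 48.1 CPM in gills with a median of 28.1, 1.08 to 5.83 in skin with a median of 4.43, and at most 1.13 in muscle, where 7 of 14 libraries had no read. The changes were -2.98 ± 0.33 from gills to skin and -4.95 ± 0.47 from skin to muscle (log2, adjusted p = 1.4e-10 and 1.2e-12, edgeR). The change into muscle rests on at most 18 reads in any muscle library, and its fitted size depends on the prior count. Only 1 of 14 muscle libraries held 10 reads or more, so miR-1788-3p entered the test through gills and skin. The direction of its change into muscle was tied to that filter, and that p is not read as support. The other arm, counted as miR-1788, was expressed in gills alone, at up to 3.64 CPM, against 0 to 6 reads in each skin library and 0 to 2 in each muscle library. It fell by 3.86 ± 0.40 from gills to skin (log2, adjusted p = 2.3e-11). It held 10 reads or more in 10 gill libraries and in 0 of skin or muscle, so it entered the test through gills. The direction of its fall was tied to that filter, and the p is not read as support. Red blood cell markers followed a different order, at 466 to 1235 CPM for gills, 54.2 to 182 for skin and 112 to 262 for muscle. White blood cell markers had winter medians of 1002 CPM (gills), 213 (skin) and 52.87 (muscle), and summer medians of 1062, 137.6 and 26.25. By median, epithelial, smooth muscle and endothelial markers also fell in these steps in both seasons, and the remaining lists did not. The part of any of these markers in the miR-1788 values was not tested.

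**Figure D2:**
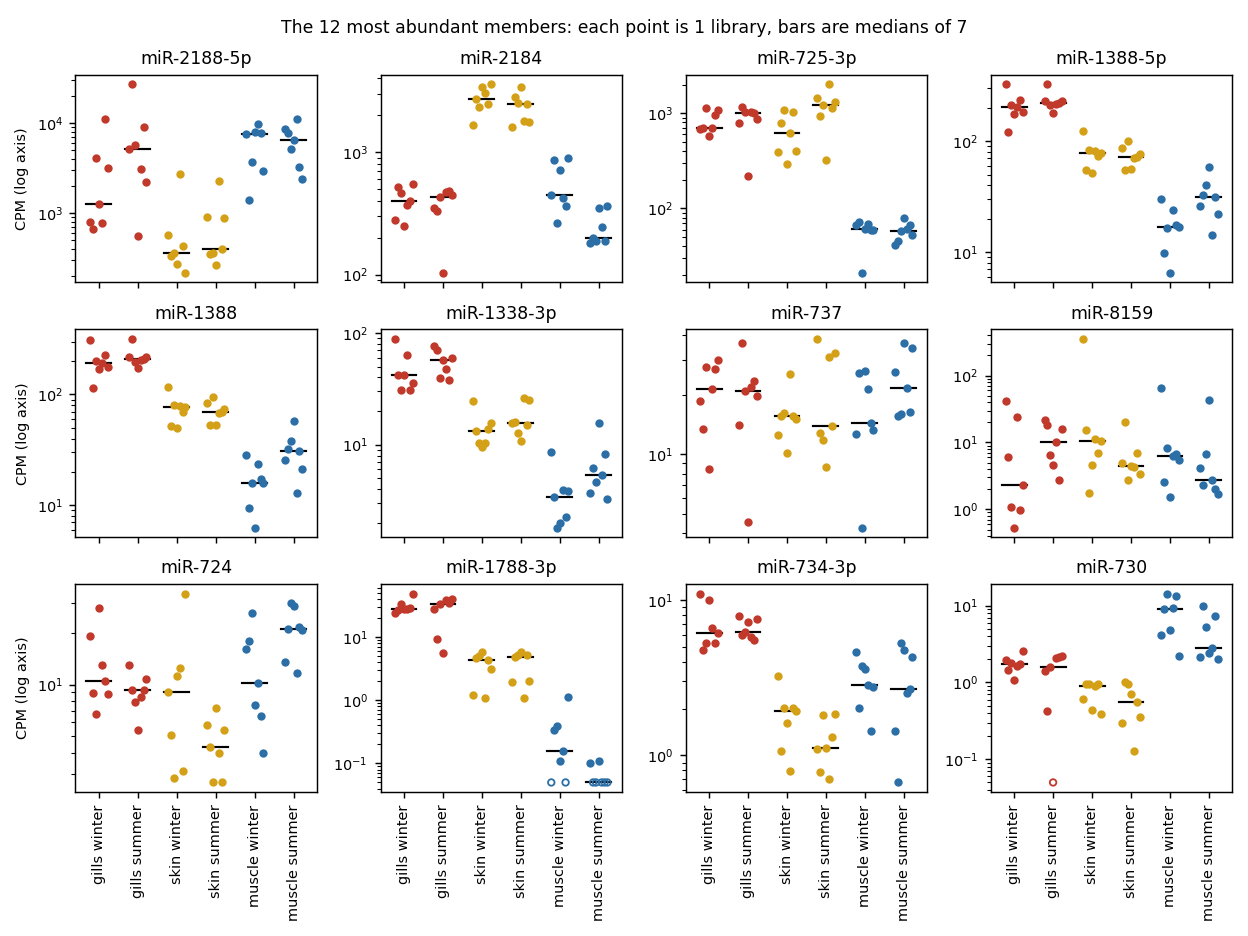
Level in CPM on a log axis (vertical) of the 12 most abundant member profiles in each library of the 6 tissue and season groups (horizontal); points are libraries, bars are medians of 7, and open circles at the foot mark libraries with no read. miR-2184 stands above all other libraries in skin, miR-725-3p is at most 80.3 CPM in muscle, and miR-1788-3p steps down from gills to skin to muscle.

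A smaller set was higher in muscle or skin. miR-730, whose 3 names share reads, was 1.99 to 14.3 CPM in muscle with a median of 5.06, against 0 to 2.54 in gills and 0.127 to 1.03 in skin. Every muscle library lay above every skin library. The rise was 1.86 ± 0.31 from gills to muscle and 3.18 ± 0.32 from skin to muscle (log2, adjusted p = 6.6e-07 and 6.7e-12, edgeR); scaled by totals alone the first turned to -1.75 and the second was 0.67 with an adjusted p of 0.0568. miR-724 also rose from skin to muscle, by 1.19 ± 0.29 (adjusted p = 4.3e-04), and turned to -1.15 with totals alone. Its libraries overlapped throughout, at 2.67 to 34.0 CPM in skin and 3.96 to 30.0 in muscle. miR-734-3p was highest in gills, at 4.81 to 11.0 CPM, against 0.701 to 3.26 in skin and 0.670 to 5.28 in muscle. It fell by 2.17 ± 0.24 from gills to skin and rose by 1.02 ± 0.24 from skin to muscle, the latter turning to -1.30 with totals alone.

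Both arms of miR-736 were near absent from gills. miR-736 was at 0 in 8 of 14 gill libraries and had at most 4 reads in the others, while skin libraries held 1 to 84 reads and muscle libraries 0 to 12. miR-736-5p was at 0 in 6 gill libraries with at most 5 reads, against 3 to 26 reads in skin and 0 to 26 in muscle. The rises from gills to skin were 4.10 ± 0.50 for miR-736 and 4.30 ± 0.54 for miR-736-5p (log2, adjusted p = 1.7e-09 and 4.4e-09, edgeR). With counts this low, both arms passed the limit for expression in skin only. No gill library held 10 reads of either arm, so both entered the test mainly through the other tissues. The direction of these rises was tied to that filter, and their p values are not read as support. miR-726 rose by 2.06 ± 0.34 from gills to skin and fell by 3.75 ± 0.43 from skin to muscle. Its medians were 0.494, 2.37 and 0.138 CPM in gills, skin and muscle. With at most 7 reads in any muscle library, miR-726 entered the test through gills and skin. The direction of its fall into muscle was thus tied to that filter and is not read as support. miR-722-5p rose by 1.37 ± 0.36 from gills to skin (adjusted p = 0.0011), from a median of 0.443 CPM to one of 1.09; with totals alone it was 0.22 with an adjusted p of 0.607. miR-7550-5p rose by 0.68 ± 0.29 from gills to skin (adjusted p = 0.045), which did not hold with the fish as a block (0.53, adjusted p = 0.11), turned to -0.42 with totals alone and was 0.64 (adjusted p = 0.0565) without gills summer 4.

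Among the remaining profiles, miR-7132b fell by 1.36 ± 0.32 from gills to skin and by 2.77 ± 0.42 from skin to muscle, from a gill median of 3.25 CPM. miR-2187a fell by 2.19 ± 0.36 from skin to muscle. In muscle, 1 of 14 libraries held 10 reads or more of miR-7132b, and none held more than 4 of miR-2187a. Both entered the test mainly through gills and skin, so the direction of their falls into muscle was tied to the filter. The relatives of miR-2187a, miR-2187 and miR-2187-5p, were expressed in gills alone, at gill medians of 0.224 and 0.231 CPM, as was miR-727b. Each of these passed the limit in gills summer only, and miR-2187 and miR-2187-5p had similar counts, at 180 and 212 reads in total. At 0 to 10 reads in each gill library, against 0 to 13 in each muscle library, miR-727b stands on too few reads for a tissue order, and it was not among the names tested. miR-737 had medians of 21.1 CPM (gills), 15.3 (skin) and 18.8 (muscle), and its tissue changes, from -0.18 to 0.13 on the log2 scale with SE of 0.25, did not pass. The 95% intervals were -0.67 to 0.31 from gills to skin, -0.54 to 0.45 from gills to muscle and -0.36 to 0.62 from skin to muscle, relative to the other miRNAs. By share of reads, miR-737 was not level, at means of 0.0155% ± 0.00668 in gills, 0.00762% ± 0.00397 in skin and 0.00202% ± 0.00114 in muscle (SD, n = 14 each).

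Over all members tested, 30 of 48 names (20 of 30 profiles) passed the threshold from gills to skin, 8 higher and 22 lower. The background over the 525 names tested was 54.5%, of which 25.7% were higher and 28.8% lower, and the median log2 change was -0.42 for members and -0.003 for all names. From gills to muscle 31 of 48 names passed, 6 higher and 25 lower, against a background of 76.6%, with 37.5% higher and 39.0% lower; the medians were -0.98 and -0.10. From skin to muscle 33 of 48 names passed, 8 higher and 25 lower, against 67.0%, with 32.4% higher and 34.7% lower; the medians were -0.95 and -0.11. The share of members passing was 62.5% from gills to skin, 64.6% from gills to muscle and 68.8% from skin to muscle. These lay above, below and near the background in turn, which was not tested. The excess of lower over higher calls was not tested against the other names, and names that share reads are counted more than once in it. With totals alone the split of higher to lower members was 6 to 34, 1 to 45 and 0 to 43 in the same order, and over all names 72 to 366, 48 to 442 and 43 to 433. The 48 names are those that passed a filter on low counts out of the 642. Some passed it through gills and skin, such as miR-726, miR-1788 and miR-2187a, with 10 reads or more in 0 of 14 muscle libraries. Their direction into muscle was tied to that filter. The lower calls and the member medians into muscle are therefore not read as a result about the members.

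**Figure D3:**
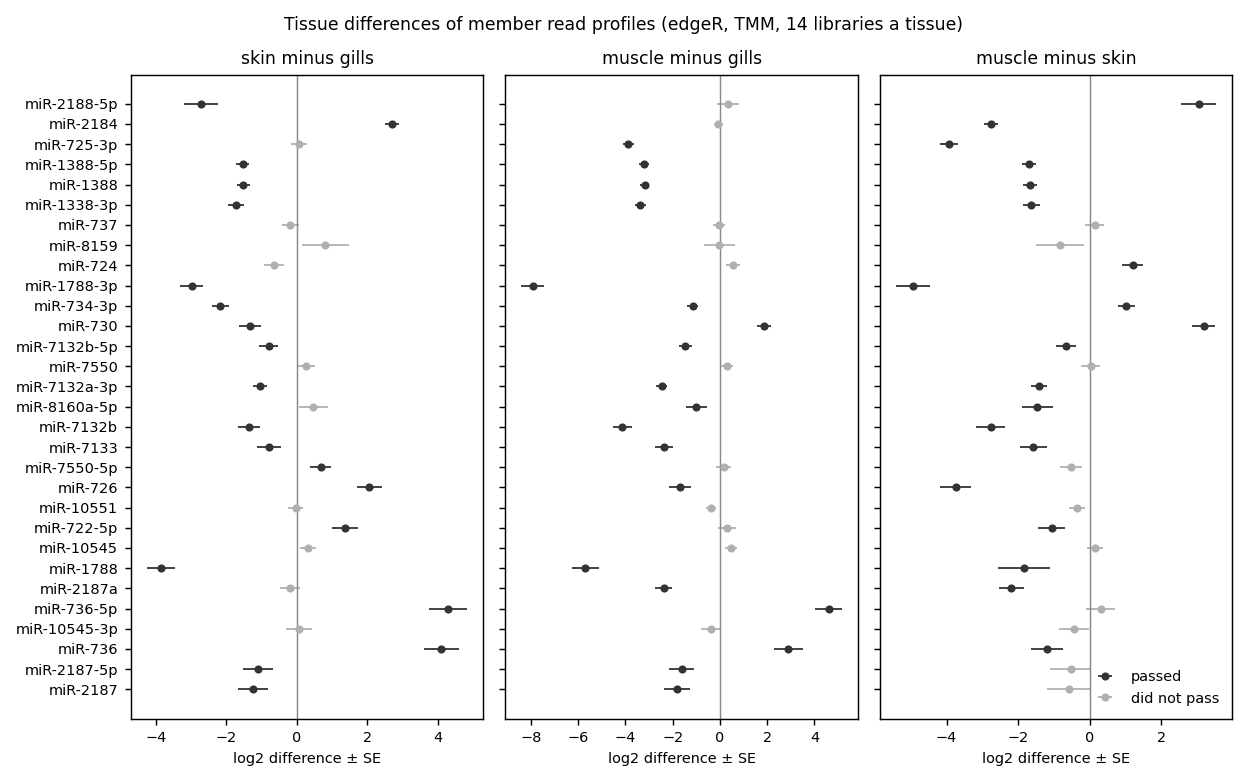
Log2 difference between tissues with its SE (horizontal axis) for the 30 member profiles tested (vertical axis, ordered by mean level), in 3 panels for skin minus gills, muscle minus gills and muscle minus skin, 14 libraries a tissue; dark points passed an adjusted p of 0.05 and grey points did not. miR-1788-3p has the largest fall into muscle at -7.93, and miR-736-5p the largest rise from gills at 4.60 in muscle and 4.30 in skin. Both had few reads in the tissue where they are low, so these directions were tied to the count filter.

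Between seasons, 1 member profile passed the threshold, and only in muscle. miR-2184 in muscle was 266 to 900 CPM in winter and 181 to 366 in summer, with means of 567 ± 253 and 245 ± 79.2 (SD, n = 7 each). In winter 5 of the 7 libraries were above 366 CPM, the highest summer value, and the other 2 lay within the summer range. The change was -1.36 ± 0.29 on the log2 scale (adjusted p = 0.0046, edgeR within muscle), lower in summer. This made 2 names of the 24 tested, against a background of 13.8% in either direction and 7.26% lower among 427 names. Leaving out each of the 14 muscle libraries in turn gave -1.49 to -1.15 with adjusted p up to 0.0265. Of the white blood cell markers, miR-142 also fell in muscle in summer, by 1.92 ± 0.54 (adjusted p = 0.024), while miR-150 (-0.68) and miR-155 (0.10) did not pass; miR-223 had no reads. Their summed level was 24.7 to 240 CPM in winter and 17.3 to 73.6 in summer. The red blood cell marker miR-451 fell by 0.62 ± 0.20 (adjusted p = 0.045) and miR-144 (-0.21) did not pass. Of the neuron markers, miR-9 rose by 0.76 ± 0.24 (adjusted p = 0.038) and miR-124-3p, at -0.86, did not pass (adjusted p = 0.084). The part of these markers in the miR-2184 change was not tested.

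miR-730 in muscle was 2.20 to 14.3 CPM in winter and 1.99 to 9.91 in summer, with overlapping ranges. Its change was -0.92 ± 0.48 on the log2 scale and did not pass (adjusted p = 0.21, edgeR). With the batch number as a block it passed at -0.97 (adjusted p = 0.045), and with totals alone at -1.47 (adjusted p = 0.027), each bringing the names passing to 5. With totals alone, 17 of all 427 names passed as higher and 75 as lower. In gills 0 of 42 names passed with edgeR or DESeq2, and 0.217% of all names passed with edgeR. An unadjusted p under 0.05 was found for 0 of these 42, against 29 of all 460 names. In skin 0 of 43 names passed with edgeR or DESeq2, and 0.629% of all names passed with edgeR. An unadjusted p under 0.05 was found for 7 of these 43, against 50 of all 477 names. The largest skin values were miR-8159 at -3.13 ± 1.07 (adjusted p = 0.32) and miR-724 at -1.23 ± 0.48 (adjusted p = 0.38). In simulated counts of the muscle comparison, 48.9% of changes of 1 log2 unit and 100% of changes of 2 were recovered, so smaller seasonal changes could be missed. The simulation gave all names 1 common spread and levels averaged over all groups, and changed only names above a minimum level. It does not give the recovery for sparse or more variable members, where larger changes could be missed too.

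**Figure D4:**
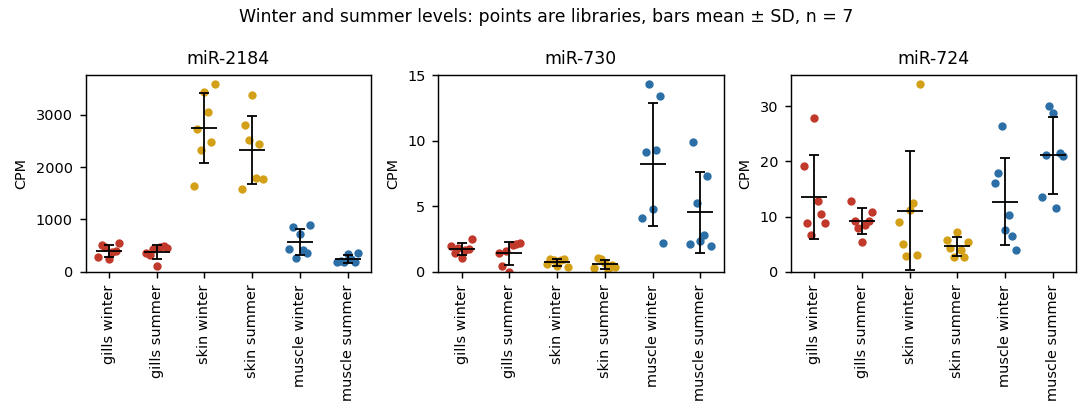
Level in CPM (vertical axis, from 0) of miR-2184, miR-730 and miR-724 in the 6 tissue and season groups (horizontal axis); points are libraries and bars are mean ± SD of 7. In muscle miR-2184 averaged 567 CPM in winter and 245 in summer, and the ranges of miR-730 and miR-724 overlap between seasons in each tissue.

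Differences of the seasonal change between 2 tissues were tested as interaction terms. At an unadjusted p under 0.05 there were 4, 7 and 12 of 48 member names for gills and skin, gills and muscle, and skin and muscle. Over all 525 names there were 27, 67 and 63. After adjustment, 0 of 48 names passed with edgeR in each pair, where 0.762%, 1.9% and 2.29% of all names did. The fall of miR-2184 in muscle is therefore not shown to differ from its values in gills and skin. Its gill and muscle interaction was -1.10 ± 0.39 (adjusted p = 0.15), and both of its names passed once gills summer 4 was left out. For miR-724 the skin and muscle interaction was 2.00 ± 0.58 (adjusted p = 0.054), and DESeq2 called its 2 names. DESeq2 called 0 members in the other 2 pairs.

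Levels of several members went with the batch number, which joins different fish of the 2 collections. How many members or other names did not is not given here, so this is not read as a trait of the members. In skin, miR-1788-3p was at most 3.05 CPM in winter libraries 1, 5 and 7 and 4.30 to 5.83 in the other 4. In summer it was 1.08 to 2.02 CPM in libraries 1, 5 and 7 and 4.71 to 5.66 in the other 4, so the same 3 numbers were lowest in both seasons. miR-2188-5p was highest in skin library 5 in both seasons, at 2696 and 2287 CPM, where the other 12 skin libraries had at most 905. miR-7132b was lowest in library 4 of both surface tissues in both seasons. It read 0.890 and 0.908 CPM in gills, where the next lowest library had 2.40, and 0.0738 and 0.416 in skin, where the next lowest had 0.848. These low values rest on 10, 1, 1 and 22 reads. The sources used here do not give what libraries of 1 batch number share. Because each number holds 1 library of each season in a tissue, it is balanced over the seasonal comparison, and the blocked fit changed only the call of miR-730.

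**Figure D5:**
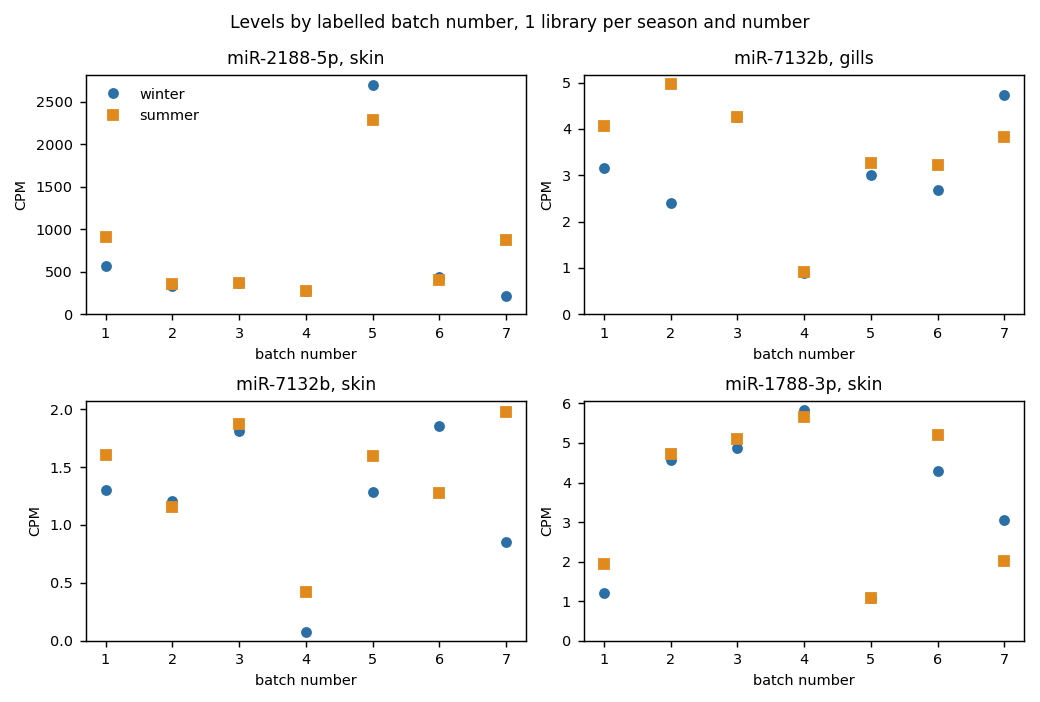
Level in CPM (vertical axis, from 0) against the labelled batch number (horizontal axis) of miR-2188-5p and miR-1788-3p in skin and of miR-7132b in gills and skin; each point is 1 library, circles winter and squares summer. Library 5 is highest for miR-2188-5p in skin at 2696 and 2287 CPM, and library 4 is lowest for miR-7132b in all 4 gill and skin groups.

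miR-8159 varied widely among the libraries of each tissue. Its medians were 6.26 CPM in gills, 5.97 in skin and 4.84 in muscle, and no tissue or season test passed. The tissue tests are relative to the other miRNAs. By share of reads, miR-8159 averaged 0.00809% ± 0.00845 in gills and 0.000945% ± 0.00144 in muscle (SD, n = 14 each). Winter fish 1 was the highest winter fish in all 3 tissues, at 41.4 CPM in gills, 354 in skin and 64.2 in muscle. The next highest winter libraries had 24.1, 15.5 and 8.14 CPM. In summer the highest library came from fish 1 in gills (21.7 CPM), fish 2 in skin (20.3) and fish 4 in muscle (43.3). Of the liver-linked miRNAs, a list added after these values were seen, miR-122 was 9.93, 45.5 and 6.34 CPM in the 3 libraries of winter fish 1, the highest winter value in gills and skin but not in muscle, where 24.0 was reached. The sum of miR-122 and miR-192 was 1296, 1342 and 295 CPM there, the highest winter sum in each tissue. Its part in the miR-8159 values was not tested.

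By Spearman correlation over the 42 libraries of deviations from the group means, against 267 other profiles, the nearest to miR-2188-5p was miR-30c (rho 0.90), followed by miR-103-5p (0.82) and miR-20 (0.78). miR-2184 was nearest to miR-24b-5p (0.82) and miR-24-5p (0.81), and miR-725-3p to miR-203b-5p (0.80) and miR-203 (0.80), the latter an epithelial miRNA. miR-1388-5p had a weaker nearest profile, let-7i (0.61), and miR-8159, chosen after its values were seen, was nearest to miR-122 (0.72). Libraries share their scaling and depth in these values, which describe the libraries and are given without a test.

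The balance of the 2 arms could be followed at few of these hairpins. Of 22 tests of the 5p to 3p ratio between tissues (exact sign-flip permutation over fish), 9 passed against a background of 38.7%. All 9 were at hairpins where the minor arm had 0 to 50 reads over all 42 libraries (miR-2184, miR-2188, miR-7132b, miR-724, miR-725 and miR-737). There the ratio follows the count of the major arm, so these 9 are not read as changes of arm use. Among hairpins with a mean of at least 5 reads in both arms, a limit set after seeing this, 0 of 5 tests passed and 0 had an unadjusted p under 0.05, against a background of 36.1%. miR-1338 held 81.3% of its reads in the 5p arm, and its log2 ratio averaged 2.05 ± 0.45 (gills), 2.26 ± 0.48 (skin) and 2.23 ± 0.61 (muscle) (SD, n = 14). miR-1788 held 4.93% in the 5p arm. For miR-7132a the value was 56.4%, but its 5p reads share a profile with miR-7132b-5p and cannot be assigned to 1 hairpin. Between seasons 0 of 28 tests passed, and 0 of 9 with both arms read, where the background was 0.0% in each case. In the exact permutation test 6 of the 28 had an unadjusted p under 0.05, against 49 of 287 over all hairpins.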

How the data were processed

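The deposited tables give, per the file headers, whole-number read counts per mature miRNA and precursor, and CPM values scaled by the authors, which were not used in tests. The sources used here give no aligner, settings or miRNA release. Species prefixes were removed, and per name and library the largest entry was kept, over the 3527 entries common to all 42 tables. Reads matching several names are counted repeatedly, so summed counts exceed the number of reads. Without molecular identifiers, the limit of 3 reads for a count of 0 covers counting error alone. No 2 libraries of a group agreed within sampling noise (126 pairs, chi-square per degree of freedom at least 42.4).

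Differences were tested on counts in R 4.3.3 by the quasi-likelihood test of edgeR 4.0.16, after TMM scaling and filterByExpr (minimum count 10, total 15), with p adjusted by Benjamini-Hochberg over all names tested and a threshold of 0.05. Tissues and interactions used all 42 libraries in 6 groups, and seasons the 14 libraries of a tissue. Each SE is the log2 change over the root of its F statistic. DESeq2 1.42.0 was an alternative, with other scalings, filters, blocks and left-out libraries. Arm ratios used log2((5p + 0.5)/(3p + 0.5)) where both arms together had at least 20 reads, and exact permutation tests (Python 3.11.15, scipy 1.17.1). The fits were tested on simulated data.

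Fish pair the tissues by design. Seasons are not paired by fish, and the batch label only joins 1 library of each season in a tissue. The main edgeR tests used neither as a block, and the alternatives with a block did. The median correlation of deviations from group means between same-numbered libraries was 0.446 for gills, 0.637 for skin and 0.0862 for muscle, and it exceeded 0.1 in 5, 5 and 3 of 7 pairs. Between tissues of 1 fish the medians were 0.117, 0.0538 and 0.209 for gills and skin, gills and muscle, and skin and muscle.

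Members, lists and tests were chosen with earlier results of these data known. Named with values were the 12 profiles of highest mean CPM, in each tissue comparison the 6 largest changes that passed in each direction, each member that passed in a season, interaction or arm test, and each profile expressed in 1 tissue.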

Additional observations from a re-analysis of the deposited data

Results flagged for a closer look

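Among 85 groups of 7 libraries tested by Dixon's gap ratio on log2 CPM, 16 held a library far from the others; chance flags about 1 in 20 groups. No explanation was tested.

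Batch number 4 held 8 of the 16. In gills summer 4, the thinnest library, miR-2184 was 103.5 CPM (next lowest 330 in its group) and miR-725-3p was 218.8 (next 781). miR-7132b was 0.890 CPM in gills winter 4, 0.908 in gills summer 4, 0.0738 in skin winter 4 and 0.416 in skin summer 4, the lowest of its group each time. miR-725-3p was 325.0 CPM in skin summer 4, where the next lowest library had 942. miR-8159 was 43.3 CPM in muscle summer 4, against 6.79 in the next highest library.

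In skin winter 5, miR-2188-5p was 2696 CPM against 567 in the next highest library, and miR-736 was 0.0987 CPM, from 1 read, against 0.512 in the next lowest. miR-8159 was 354 CPM in skin winter 1, where the next highest library had 15.5. Muscle winter 3 was low in miR-725-3p, at 21.1 CPM against 58.9, and in miR-737, at 4.27 against 12.7. Gills summer 2 was high in miR-1388-5p, at 324.9 CPM, and in miR-1388, at 318.4, which rest on nearly the same reads. miR-1788-3p was 48.1 CPM in gills winter 7 against 32.4 in the next highest library.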

How the results depend on the processing

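Of 32 named tissue and season changes, scaling by totals alone reversed 5: miR-724 (-1.15) and miR-734-3p (-1.30) from skin to muscle, miR-730 (-1.75) and miR-736 (-0.18) from gills to muscle, and miR-7550-5p (-0.42) from gills to skin. It ended the call of 3 more, miR-2188-5p and miR-730 from skin to muscle and miR-722-5p from gills to skin. By construction this scaling shifts the median miRNA between tissues. DESeq2, DESeq2 size factors, 1 fixed row per name, 1 name per profile and no filter kept the direction and call of all 32; the fish or batch block ended 1 call (miR-7550-5p). Without a filter 56 members passed from skin to muscle, of 91 tested. In muscle 5 names passed between seasons under the replicate block and 5 with totals alone, where 17 of all 427 names were higher and 75 lower. Interactions gave 2 names for gills and muscle without gills summer 4 and 2 without both thin gill libraries, a choice made after seeing the data. For skin and muscle they gave 1 with 1 name per profile, 2 with DESeq2 and 10 with totals alone. With totals alone, 5 of all 525 names passed as higher and 88 as lower there. The calls over all names are not given here for the other settings, and the cause was not tested. Arm tests that passed between tissues went from 9 to 0 with both arms read.

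Expressed names depended on the limit. At 100 reads in 4 of 7 libraries they were 16 in gills winter, 30 in gills summer, 16 in skin winter, 17 in skin summer, 11 in muscle winter and 13 in muscle summer. These are 1.71% to 4.67% of member names, against 19.8% to 27.8% of all names. At 10 reads in 7 of 7 they were 21 in gills winter, 10 in gills summer, 21 in skin winter, 31 in skin summer, 20 in muscle winter and 17 in muscle summer, so muscle was no longer lowest. Over all names the shares at that limit were 18.0% in gills summer, the lowest, to 31.7% in skin summer, the highest. At 1 CPM they were 14 member names in muscle summer (2.18%), against 25.3% of all names. Summed over names, the member share of reads was 3.69% (gills), 1.21% (skin) and 0.365% (muscle). Depth limits members under about 10 reads a library.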
